A study of Mus musculus with 24 samples.

Results

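Dnmt1, Dnmt3a and Dnmt3b encode DNA methyltransferases, enzymes that add a methyl group to cytosine in DNA. They were chosen by symbol, as 3 of the 37991 genes in a table of RNA sequencing counts from mouse nucleus accumbens, and all 3 were found there. Dnmt3a is also the gene that the study made deletable, so its count per library bears on the Cre label of that library.

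Dnmt1 copies methylation onto the new DNA strand after replication and stays expressed in neurons that no longer divide. Dnmt3a and Dnmt3b set new methylation marks. Dnmt3a is the main such enzyme of the brain after birth, where it methylates cytosine in CG and also in CA context. Dnmt3b acts mainly in the early embryo.

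The 24 libraries came from C57BL/6J mice and formed 8 groups of 3 libraries in 2 experiments, and each library was made from the pooled mRNA of 4 mice. In the floxed experiment, all mice carried Dnmt3a2lox/2lox, a Dnmt3a gene with loxP sites, and all were stressed. Female and male groups received AAV-CRE, an adeno-associated virus that carries the recombinase Cre, and were compared with female and male groups that received AAV-GFP. In the wild-type experiment, stressed females and males were compared with control females and males, with genotype WT and no virus listed. By the title of the series the stress was subchronic and variable, which means that the stressors changed. The sources used here do not give the age of the mice, the promoter that drives Cre, the exons between the loxP sites or the share of cells that the virus reached. The tissue protocol names both nucleus accumbens and dorsal striatum. Errors and p-values cover the spread between libraries, and pooling hides the spread between single mice.

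Total counts per library were 28132563 to 59829070 in the floxed experiment and 7116123 to 12145551 in the wild-type experiment. All 14 striatal neuron marker genes were detected in both experiments, with a summed level of 4420 to 8634 CPM per floxed library and 7320 to 10121 CPM per wild-type library. The 4420 CPM belonged to Cre male library 2 alone, and the other floxed libraries held 7019 to 8634 CPM. CPM here means edgeR's CPM, counts scaled to library size with TMM factors. In the floxed experiment, the 3 Cre male libraries stood apart from the rest: 15 marker genes of cortical excitatory neurons summed to 873, 891 and 503 CPM in them, against 252, 303 and 303 CPM in GFP male libraries. Choroid plexus markers summed to 374, 3325 and 237 CPM in Cre male libraries, against 180 to 214 CPM in GFP male libraries. The experiments differed in genotype, virus, stress and depth together, so no fold change was taken between them.

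The transcripts show how far reads of the 3 genes could be mixed up. Dnmt3a (ENSMUSG00000020661) lies on chromosome 12, Dnmt1 (ENSMUSG00000004099) on chromosome 9 and Dnmt3b (ENSMUSG00000027478) on chromosome 2. Sequences were read from GENCODE M21 transcripts on build GRCm38, and no coordinates are given because the counts were made on an earlier build. Dnmt1 shared no run of 25 bases with Dnmt3a or Dnmt3b. The longest run shared by Dnmt3a and Dnmt3b was 18 bases of coding sequence, shown in capitals with 24 bases on each side:
Dnmt3a: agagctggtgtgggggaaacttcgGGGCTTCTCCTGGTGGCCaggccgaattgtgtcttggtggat
Dnmt3b: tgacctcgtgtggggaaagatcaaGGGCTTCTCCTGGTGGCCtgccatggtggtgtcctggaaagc
Outside the capitals, 26 of the 48 bases were identical.

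Of the 5 pairs of transcripts compared, Dnmt3b and its neighbour Dnmt3c shared the longest run. Dnmt3c is a rodent gene known for methylation in the male germ line. The run was 287 bases of coding sequence, and 17.5% of the 25-base windows and 11.4% of the 50-base windows of Dnmt3b also occurred in Dnmt3c. The last 40 bases of that run are shown in capitals, followed by 40 bases of which 35 were identical:
Dnmt3b: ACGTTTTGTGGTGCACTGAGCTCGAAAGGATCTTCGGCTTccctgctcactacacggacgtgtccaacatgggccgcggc
Dnmt3c: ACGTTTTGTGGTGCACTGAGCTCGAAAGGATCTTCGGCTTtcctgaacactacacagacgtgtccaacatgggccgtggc
Dnmt3c held 1 to 6 counts per floxed library and 0 to 4 per wild-type library. Short reads from the shared stretch match both genes, and the sources do not say how such reads were counted, so a Dnmt3b count is uncertain to that extent.

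Dnmt3a has a pseudogene, Dnmt3a-ps1, on chromosome 3. The longest shared run was 41 bases, shown in capitals:
Dnmt3a: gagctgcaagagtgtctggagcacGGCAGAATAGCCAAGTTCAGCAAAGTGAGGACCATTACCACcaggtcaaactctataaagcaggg
Dnmt3a-ps1: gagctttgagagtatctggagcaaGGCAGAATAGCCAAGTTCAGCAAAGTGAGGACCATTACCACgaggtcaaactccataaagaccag
Only 0.735% of the 25-base windows of Dnmt3a, and 0 of its 50-base windows, also occurred in the pseudogene. An antisense transcript, Dnmt3aos, overlaps 133 exonic bases of Dnmt3a and held 3 to 15 counts per floxed library and 0 to 12 per wild-type library. The sources do not say whether reads were counted by strand, so reads of Dnmt3aos and Dnmt3a cannot be told apart there.

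Dnmt3a had the highest count of the genes in every library, Dnmt1 came next, and Dnmt3b was far below both. Dnmt3a took 63.6% to 70.6% of the summed count of the 3 genes in floxed libraries and 63.5% to 73.1% in wild-type libraries. The Dnmt1 share was 29.0% to 35.9% in floxed libraries and 26.5% to 36.3% in the others. The Dnmt3b share was 0.317% to 0.647% in floxed libraries and 0.0737% to 0.405% in the others.

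Per length, the order of Dnmt3a and Dnmt1 depended on the length used, while Dnmt3b was lowest with each length. With the longest coding transcript (9685 bases for Dnmt3a, 5870 for Dnmt1, 4320 for Dnmt3b), the median level over the 12 floxed libraries was 16.0 CPM per kilobase for Dnmt3a, 12.4 for Dnmt1 and 0.229 for Dnmt3b. Dnmt3a was then above Dnmt1 in 12 of 12 floxed and 12 of 12 wild-type libraries. With the union of all annotated exons (16642 bases for Dnmt3a and 7377 for Dnmt1), it was above Dnmt1 in 4 of 12 floxed and 6 of 12 wild-type libraries. Of the Dnmt3a transcript 2724 bases are coding, and the count does not say which transcripts the reads came from.

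**Figure D1:**
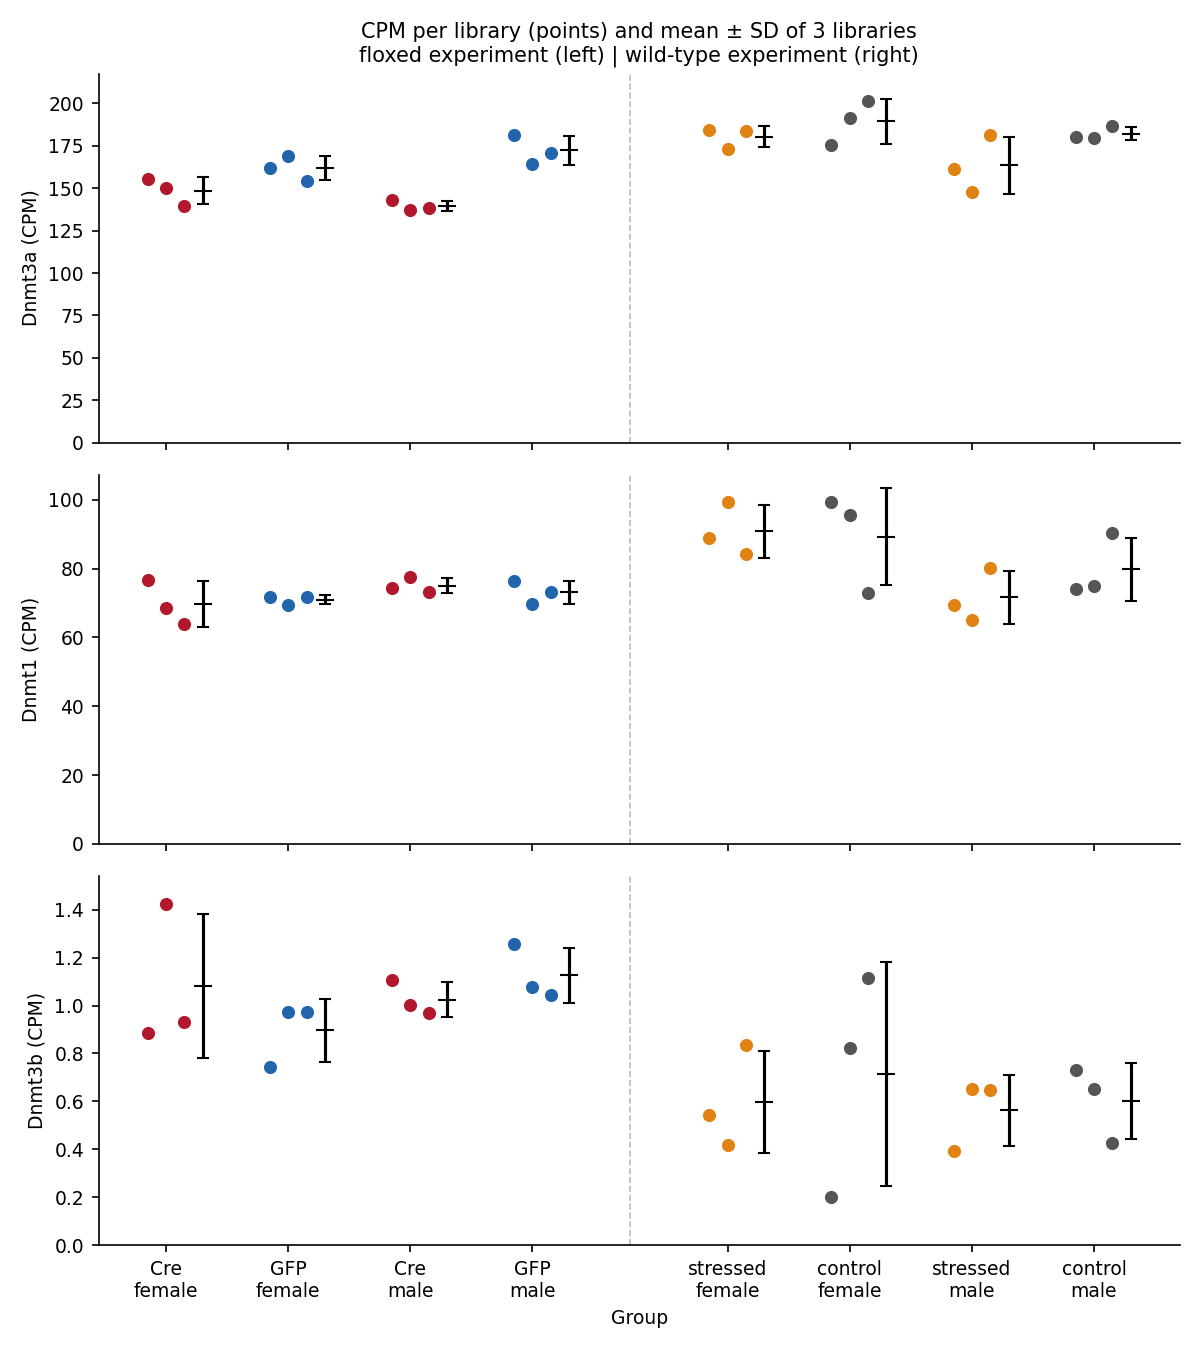
CPM of Dnmt3a, Dnmt1 and Dnmt3b (y axes, each starting at 0) in the 24 libraries, 3 per group, with black marks for the mean ± SD. The Cre male libraries sit between 137 and 143 CPM of Dnmt3a, below every GFP male library, whereas Dnmt1 overlaps between Cre and GFP libraries in both sexes.

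In males, Dnmt3a fell with Cre, to 0.809 times its level with GFP. Cre male libraries 1, 2 and 3 held 5422, 8368 and 4719 Dnmt3a counts, which is 143, 137 and 138 CPM, against 5342, 4886 and 6710 counts, or 182, 164 and 171 CPM, in GFP males. The groups did not overlap: the highest Cre male library was below the lowest GFP male library. Such a gap, in the lower direction, was seen in 14.7% of the 17597 genes tested. Group levels were 140 ± 2.98 CPM in Cre males and 172 ± 8.63 CPM in GFP males (SD, n = 3 each).

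The male change of Dnmt3a was -0.30 on the log2 scale (SE 0.06, 95% interval -0.43 to -0.18), with an adjusted p = 0.0149 in edgeR's quasi-likelihood test. By this test 1.28% of genes were called lower in Cre males and 4.96% were called in either direction. Dnmt3a was the only one of the 3 genes called. It held rank 24 by p among the genes that were lower in Cre males. The call was lost without GFP male library 1 (log2 -0.27, adjusted p = 0.0579 in edgeR) and without GFP male library 3 (log2 -0.31, adjusted p = 0.0583), and was kept without any other library.

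In females, Dnmt3a did not pass the test, and Cre and GFP libraries overlapped at 1 point. Cre female libraries held 6140, 4222 and 5856 counts, or 155, 150 and 140 CPM, against 5666, 5723 and 5244 counts, or 162, 169 and 155 CPM, in GFP females. The highest Cre female library, at 155.2 CPM, lay just above the lowest GFP female library, at 154.5 CPM. Group levels were 148 ± 7.89 CPM in Cre females and 162 ± 7.19 CPM in GFP females (SD, n = 3 each). The log2 change was -0.12 (SE 0.06, 95% interval -0.247 to -0.0017), a change of -8.26%, with an adjusted p = 0.829 in edgeR. No gene was called in Cre females by edgeR (0% of 17597), although 1049 genes, or 5.96%, had an unadjusted p below 0.05. Dnmt3a was among these, with an unadjusted p = 0.0474 in edgeR and rank 1004 by p. DESeq2 called 34 genes, or 0.193%, of which Dnmt3a was not one (adjusted p = 0.741).

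Averaged over the sexes, Dnmt3a was lower with Cre by a log2 change of -0.21 (SE 0.04, 95% interval -0.30 to -0.13), with an adjusted p = 0.0260 in edgeR. Over all genes, 0.119% were called lower, and Dnmt3a held rank 3 by p among the lower ones. All 6 Cre libraries were below the GFP mean of their sex, and 5 of 6 were below every GFP library of their sex. The share of all genes with such counts over both sexes is not given here. In males alone, 14.7% of the 17597 genes had groups without overlap in the lower direction. The exact permutation test within sex, two-sided over 400 arrangements, gave p = 0.01 and an adjusted p = 0.06 over 6 tests, where the smallest possible p was 0.005. Over both sexes the level was 144 ± 7.25 CPM with Cre and 167 ± 9.14 CPM with GFP (SD, n = 6 each).

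That edgeR call held in 4 of 12 fits that left out 1 library. It was lost, with adjusted p from 0.0501 to 0.0758, on leaving out Cre male library 1, Cre female library 2 or 3, any of the 3 GFP male libraries, or GFP female library 1 or 2. The log2 change stayed between -0.23 and -0.19 over the 12 fits.

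The female change minus the male change of Dnmt3a was 0.18 on the log2 scale (SE 0.08, 95% interval 0.01 to 0.35). Its adjusted p was 0.269 in edgeR, so a difference in the size of the change between the sexes was not called. In that comparison 0.0114% of genes were called.

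**Figure D2:**
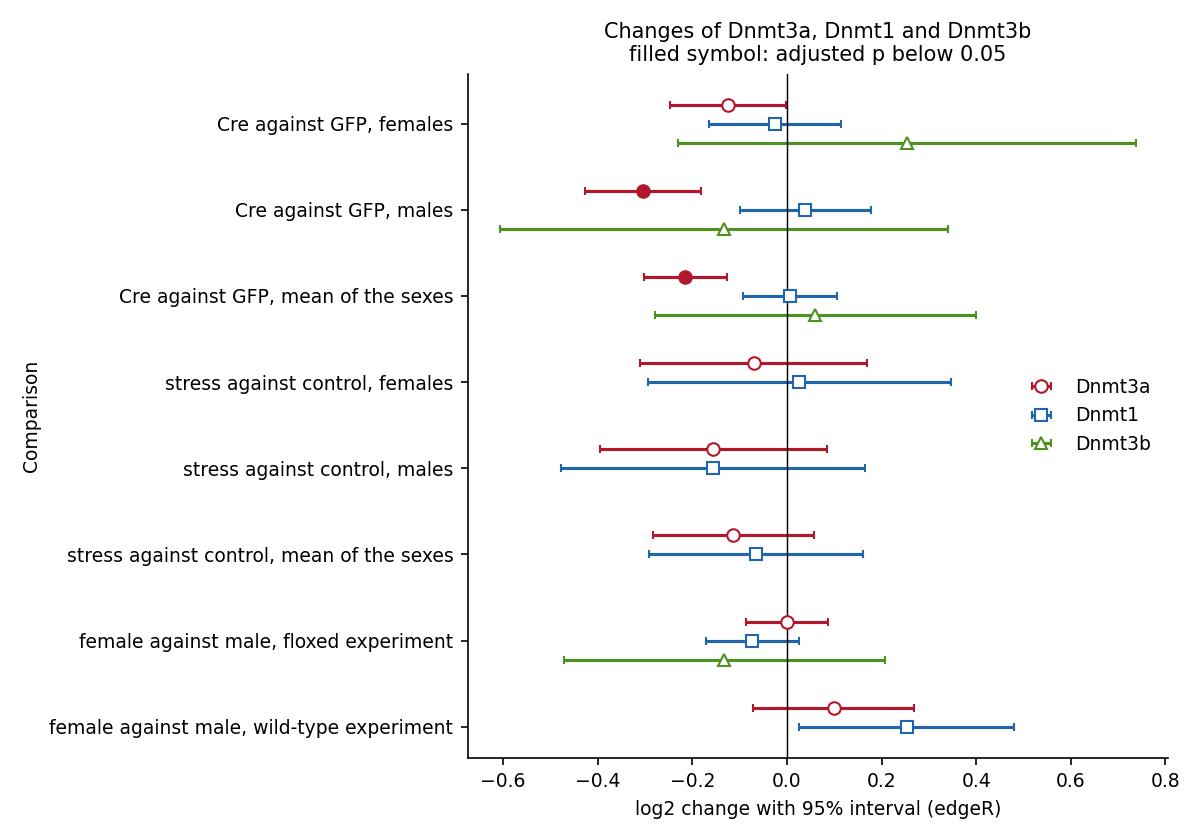
Log2 changes with 95% intervals from edgeR (x axis) for 8 comparisons (y axis), filled where the adjusted p was below 0.05. Dnmt3a is filled for Cre against GFP in males (-0.30) and over both sexes (-0.21), and every interval of Dnmt1 and Dnmt3b in the Cre comparisons spans 0.

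Values of other cells' markers moved with Cre in males. Of the 15 cortical markers, 11 were called in Cre males by edgeR, all higher, against 4.96% of all genes called in either direction. A positive change was seen in 14 of the 15, against 8955 of 17597 genes, with a median log2 change of 3.84, against 0.00 over all genes. All 14 striatal neuron markers had a negative change in Cre males, against 8642 of 17597 genes, with a median of -0.31. Of these 14, edgeR called 0, against 4.96% of all genes, and DESeq2 called 2, against 10.2%. Other marker lists had median log2 changes in Cre males of 2.06 (choroid plexus), 0.49 (meninges), 0.43 (reactive glia), 0.23 (microglia) and 0.23 (oligodendrocytes). The rest were at 0.16 (oligodendrocyte precursors and dividing cells), 0.15 (astrocytes), -0.05 (endothelium) and -0.66 (blood). In these lists edgeR called 0 genes, and DESeq2 called 6 of 12 choroid plexus markers and at most 1 gene in any other. In females, cortical markers summed to 259 to 332 CPM in Cre libraries and 259 to 303 CPM in GFP libraries, with a median log2 change of 0.02. None of the cortical or striatal markers was at 0 throughout.

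With the cortical marker level as a covariate, the male change of Dnmt3a was -0.14 with an adjusted p = 1, and 0 of all genes were called by edgeR. The average over the sexes was also -0.14 with an adjusted p = 1.00. The Cre male libraries held the 3 highest cortical sums of the floxed experiment, so Cre and the cortical level cannot be told apart in males. Without Cre male library 2, which held the most choroid plexus RNA, the male change was -0.30 with an adjusted p = 0.0414 in edgeR. In bulk tissue, fewer cells of a type and less Dnmt3a RNA per cell cannot be told apart.

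**Figure D3:**
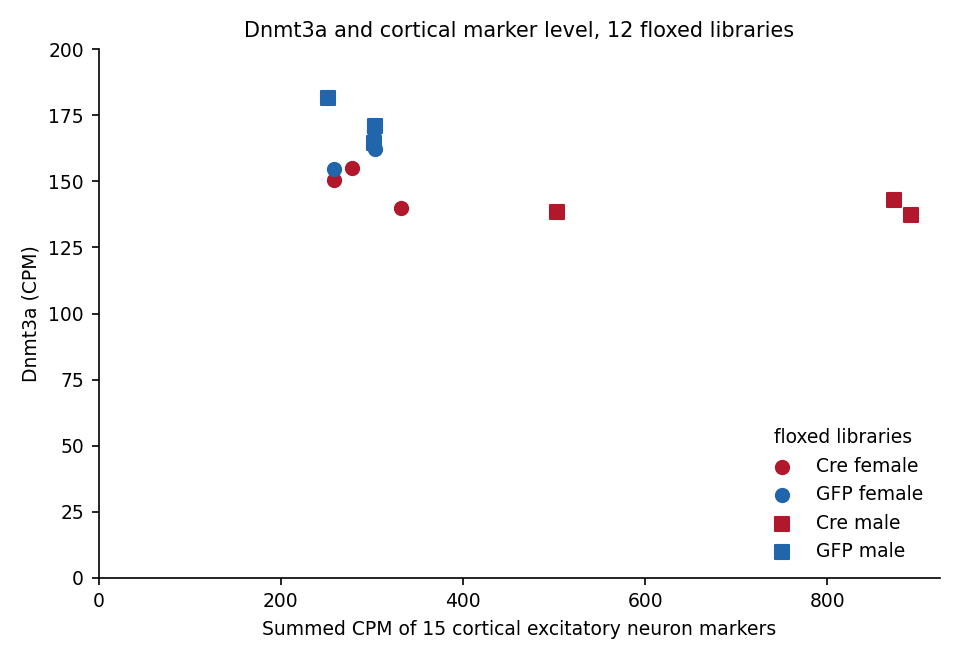
Dnmt3a in CPM (y axis) against the summed CPM of 15 cortical excitatory neuron markers (x axis) in the 12 floxed libraries, coloured by virus and shaped by sex. The Cre male libraries lie at 503 to 891 on the x axis and all other libraries at 252 to 332. The Cre female libraries lie at 140 to 155 CPM of Dnmt3a and the GFP female libraries at 155 to 169 CPM, with overlap.

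Dnmt1, the maintenance enzyme, was not called with Cre. Cre male libraries held 74.4, 77.5 and 73.1 CPM, against 76.3, 69.6 and 73.3 CPM in GFP males. Cre female libraries held 76.8, 68.6 and 63.8 CPM, against 71.9, 69.5 and 71.6 CPM in GFP females. Ranges overlapped in both sexes, and the log2 change was 0.04 in males (95% interval -0.10 to 0.18) and -0.03 in females (95% interval -0.17 to 0.11). Their average was 0.01 (SE 0.05, adjusted p = 0.966 in edgeR), and its sign turned to -0.02 with the choroid plexus marker covariate.

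Dnmt3b, the other de novo enzyme, was measured with few reads. It held 33 to 61 counts in Cre male libraries and 35 to 40 in Cre female libraries, against 32 to 41 in GFP males and 26 to 33 in GFP females. These counts were 0.967 to 1.11 CPM in Cre males and 0.885 to 1.43 CPM in Cre females, against 1.05 to 1.26 CPM in GFP males and 0.744 to 0.974 CPM in GFP females. Ranges overlapped in both sexes. The log2 change was -0.13 in males (95% interval -0.61 to 0.34) and 0.25 in females (95% interval -0.23 to 0.74), neither called. The female value was 0.01 without Cre female library 2, 0.14 without GFP female library 1 and up to 0.37 on leaving out another library, and the male value was -0.05 without GFP male library 1. An opposite change of the size of that of Dnmt3a lies within both full intervals. Counting alone gave Dnmt3b a coefficient of variation of 14.9% to 18.1% per library of the floxed groups, against 1.27% to 1.36% for Dnmt3a.

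Averaged over the sexes, the make-up of the Dnmt count shifted with Cre. This comparison does not depend on library scaling, but it can depend on tissue make-up. Whether the shift differed between the sexes was not tested. Neither the share nor the ratio of counts was tested with the cortical covariate, and the Cre male libraries held the raised cortical markers. Dnmt3a took 65.4%, 63.6% and 65.1% of the summed count in Cre male libraries, against 70.1%, 69.9% and 69.7% in GFP males. It took 66.6%, 68.2% and 68.3% in Cre females, against 69.1%, 70.6% and 68.0% in GFP females. The male groups were apart and the female groups overlapped.

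Averaged, the Dnmt3a share was 66.2 ± 1.86% with Cre and 69.6 ± 0.897% with GFP (SD, n = 6 each), a difference of -3.33 percentage points (exact permutation within sex, two-sided, p = 0.015, adjusted p = 0.045 over 6 tests). The Dnmt1 share was 33.3 ± 1.90% with Cre and 30.02 ± 0.915% with GFP (the same exact permutation test, adjusted p = 0.045). With so few Dnmt3b reads, the Dnmt1 share is nearly the complement of the Dnmt3a share and is no separate result. The Dnmt3b share, 0.485% with Cre and 0.420% with GFP, did not pass (exact permutation, adjusted p = 0.32). Leaving out Cre female library 1, GFP female library 1 or GFP female library 2 lost the call on the Dnmt3a share, at differences of -3.05, -3.37 and -2.99 percentage points with exact permutation adjusted p of 0.06, 0.075 and 0.09.

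As a ratio, Cre libraries held 2.00 ± 0.170 Dnmt3a reads per Dnmt1 read and GFP libraries 2.32 ± 0.0987 (SD, n = 6 each). Exact permutation within sex gave p = 0.015 and an adjusted p = 0.03 over both experiments. With so few Dnmt3b reads, this ratio nearly restates the Dnmt3a share and is no separate result. Its adjustment covered fewer tests than that of the share. By group, the mean ratio was 1.86 in Cre males and 2.14 in Cre females, against 2.36 in GFP males and 2.28 in GFP females. The 3 GFP male libraries lay within 2.33 to 2.38, the narrowest range of the 8 groups.

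**Figure D4:**
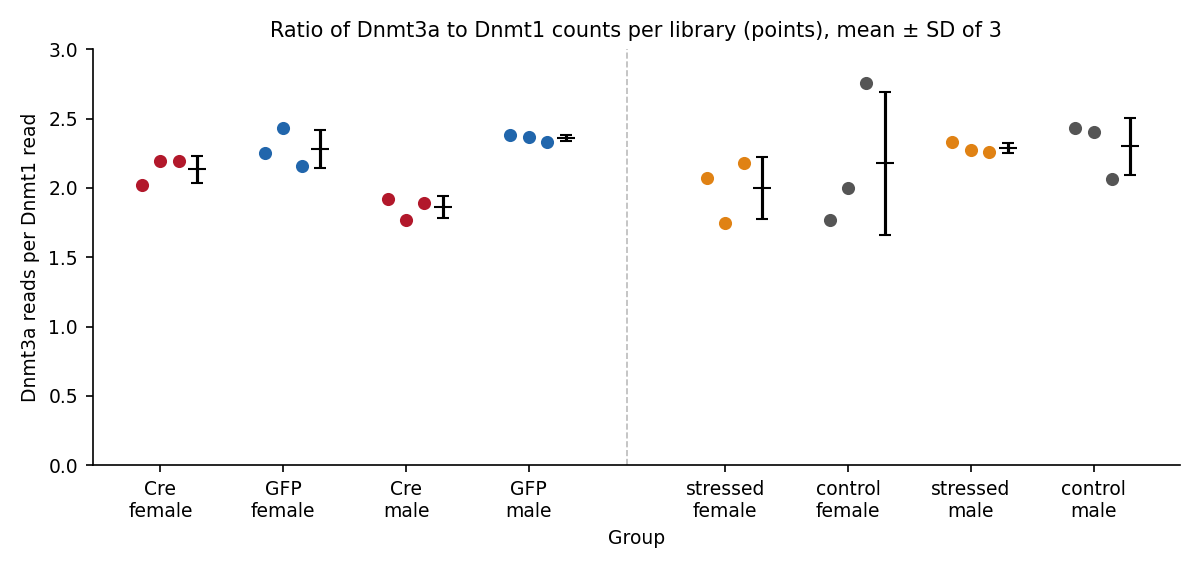
Dnmt3a reads per Dnmt1 read (y axis, from 0) in each library, with the mean ± SD of 3 libraries, by group. Cre males lie at 1.77 to 1.92 and GFP males at 2.33 to 2.38, Cre and GFP females overlap, and the control females spread from 1.77 to 2.76.

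Genes next to the methyltransferases, as given here, were not called by edgeR in Cre males, against 4.96% of all genes. In Cre females edgeR called 0% of all genes. Dtnb and Pomc flank Dnmt3a, with log2 changes of -0.15 (adjusted p = 0.289) and 0.51 (adjusted p = 0.213) in Cre males by edgeR. Eif3g and S1pr2, beside Dnmt1, had changes of 0.10 and -0.16 in Cre males, and Commd7, beside Dnmt3b, had -0.06. Dnmt3c, on the other side of Dnmt3b, held 1 to 6 counts per floxed library, and no change is given for it.

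Stress gave no call for any of the methyltransferases in wild-type mice. Stressed male libraries held 1648, 1362 and 1680 Dnmt3a counts, or 162, 148 and 181 CPM, against 1730, 1657 and 2191 counts, or 180, 180 and 187 CPM, in control males. Stressed females held 1361, 1665 and 1320 counts, or 184, 173 and 184 CPM, against 1732, 1859 and 1987 counts, or 176, 191 and 202 CPM, in control females. Ranges overlapped in both sexes.

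The log2 change of Dnmt3a with stress was -0.16 in males (95% interval -0.40 to 0.08) and -0.07 in females (95% interval -0.31 to 0.17). The male value was -0.09 without stressed male library 2 and -0.24 without stressed male library 3, and the female value was -0.04 on leaving out library 2 of the stressed females, and -0.12 or -0.02 on leaving out library 1 or library 3 of the control females. Averaged over the sexes it was -0.11 (SE 0.08, adjusted p = 0.9997 in edgeR). All 6 stressed libraries were below the control mean of their sex, and the share of all genes with that order is not given here. Dnmt3a was at 172 ± 14.6 CPM under stress and 186 ± 9.45 CPM in controls (SD, n = 6 each). The exact permutation test gave p = 0.07 and an adjusted p = 0.21. Of the 15249 genes tested, edgeR called 0% in stressed females, 0.00656% in stressed males and 0.0131% in the average. In stressed females, 256 genes (1.68%) had an unadjusted p below 0.05 and DESeq2 called 2 (0.0131%). The female change minus the male change of Dnmt3a was 0.09 (SE 0.16), and 0 genes were called in that comparison. Choroid plexus markers summed to 266 to 405 CPM in stressed males and 188 to 917 CPM in stressed females, against 189 to 4772 CPM in control males and 185 to 1030 CPM in control females. With these markers as a covariate the change of Dnmt3a was -0.15 in males and -0.07 in females. In stressed females, 10 of the 13 cortical markers tested had a negative change, with a median log2 change of -1.01, and 6 had an unadjusted p below 0.05, though edgeR and DESeq2 called 0. Cortical sums were 365 to 411 CPM in stressed females, against 410 to 498 CPM in control females, and with the cortical covariate the female change of Dnmt3a was -0.11.

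Dnmt1 spread widely among wild-type libraries. It stood at 89.0, 99.3 and 84.3 CPM in stressed females, against 99.2, 95.6 and 73.0 CPM in control females. Stressed males had 69.4, 65.1 and 80.2 CPM, against 74.2, 74.9 and 90.3 CPM in control males. Control female library 3 had the lowest Dnmt1 and the highest Dnmt3a of its group, and its ratio of 2.76 Dnmt3a reads per Dnmt1 read was the highest of the 24 libraries. The change of Dnmt1 with stress was 0.03 on the log2 scale in females and -0.16 in males, neither called, and the female value turned to -0.10 without control female library 3 and to -0.04 without stressed female library 2. It was 0.13 with the cortical covariate and -0.0096 with the choroid plexus covariate. The male value was -0.05 without control male library 3, -0.09 without stressed male library 2, -0.25 without stressed male library 3 and -0.07 with the choroid plexus covariate.

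Dnmt3b was below the count filter in the wild-type experiment, so edgeR did not test it there. It held 4 to 6 counts in stressed female libraries and 4 to 6 in stressed male libraries, against 2 to 11 in control females and 5 to 7 in control males. Its level averaged 0.581 ± 0.166 CPM under stress and 0.658 ± 0.317 CPM in controls (SD, n = 6 each), and a difference was not detectable at this depth (exact permutation, adjusted p = 0.93). The shares of the 3 genes did not differ with stress beyond their spread (exact permutation, adjusted p from 0.846 to 0.86), with Dnmt3a at 67.9 ± 2.32% in stressed and 68.6 ± 3.37% in control libraries.

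By sex, no methyltransferase was called in either experiment. Dnmt1 had a log2 difference of 0.25 for female against male in wild-type mice (SE 0.11, adjusted p = 0.971 in edgeR), where 0.0393% of genes were called. In the floxed experiment, where 0.0682% were called, the same difference was -0.07 (SE 0.05). Dnmt3a differed by 0.10 in wild-type and by -0.00 in floxed mice. The floxed value is a mean over GFP and Cre groups that went opposite ways. With GFP, females were at 162 and males at 172 CPM, and with Cre, females were at 148 and males at 140 CPM. In the floxed experiment the order of group means for Dnmt3a was GFP males, GFP females, Cre females and Cre males, and each neighbour in that order overlapped with the next. In the wild-type experiment the control females had the highest mean, then control males, then stressed females, and stressed males the lowest, again with overlap between neighbours.

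Other genes of the methylation cycle were read by list. The maintenance list held 10 genes linked to Dnmt1 and to methylation at replicated DNA. Of these, Uhrf1 recognises newly copied DNA that carries the mark on the old strand alone, and Hells and Cdca7 remodel chromatin for methylation. In Cre males 0 of 10 were called by edgeR or DESeq2, and the median log2 change was -0.03. An unadjusted p below 0.05 was held by 1 of 10, against 24.8% of all genes, and DESeq2 called 10.2% of all genes there. In Cre females edgeR and DESeq2 called 0 of 10, against 0% and 0.193% of all genes, and 2 had an unadjusted p below 0.05, against 5.96% of all genes. These were Uhrf1 (log2 0.59, adjusted p = 0.630 in edgeR), at 2.99 ± 0.734 CPM in Cre females and 1.99 ± 0.181 CPM in GFP females, and Cdca7 (log2 0.58, adjusted p = 0.509), at 7.85 ± 0.695 and 5.27 ± 0.985 CPM in the same groups (SD, n = 3 each).

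The de novo list held 14 chromatin genes linked to Dnmt3a and Dnmt3b, among them genes that set or read chromatin marks. In Cre males, 12 of 14 had a negative change with a median of -0.09, against 8642 of 17597 genes and a median of 0.00 over all genes. None was called by edgeR, against 4.96% of all genes, 3 had an unadjusted p below 0.05, against 24.8%, and DESeq2 called 2, against 10.2%. Ezh2, the histone methyltransferase of Polycomb, was at 9.87 ± 0.390 CPM in Cre males and 12.3 ± 1.04 CPM in GFP males (SD, n = 3 each), a log2 change of -0.32 with an adjusted p = 0.0603 in edgeR. Setd2, which writes H3K36 methylation, had a change of -0.18 in Cre males (adjusted p = 0.0863 in edgeR). In Cre females 7 of 14 were negative, with 0 called by edgeR or DESeq2 and 2 at an unadjusted p below 0.05, against 5.96% of all genes.

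Of 13 genes that supply or recycle the methyl donor S-adenosylmethionine (SAM), 0 were called by edgeR or DESeq2 in Cre males or Cre females, with 1 at an unadjusted p below 0.05 in each sex. Over all genes, edgeR called 4.96% and DESeq2 10.2% in males and 0% and 0.193% in females, and 24.8% in males and 5.96% in females had such a p. Ahcy, which clears the by-product of methylation, had a log2 change of -0.18 in Cre males (adjusted p = 0.166 in edgeR).

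Among 9 genes of DNA demethylation, Tet2 was called in Cre males by edgeR, where 1.28% of all genes were called lower. DESeq2 called 2 of the 9, against 10.2% of all genes, and 5 of the 9 had an unadjusted p below 0.05, against 24.8% of all genes. Tet2, an enzyme that oxidises methylcytosine, stood at 69.1 ± 0.462 CPM in Cre males and 83.5 ± 1.54 CPM in GFP males (SD, n = 3 each), and fell by 0.27 on the log2 scale (SE 0.05, adjusted p = 0.0185 in edgeR). In Cre females its change was -0.01, and the difference between the sexes, 0.26, was not called by edgeR. The Tet2 call was lost in 5 of 12 fits that left out 1 library, with adjusted p of 0.0538 to 0.0775, namely without Cre male library 1 or 2 or any of the GFP male libraries. With the cortical covariate the change was -0.12 (adjusted p = 1 in edgeR).

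Gadd45b, a stress-inducible gene linked to demethylation in neurons, was called higher over both sexes, where 1.3% of all genes were called higher and 1.42% in either direction (log2 0.58, SE 0.13, adjusted p = 0.0487 in edgeR). It was at 8.09 ± 1.43 CPM in Cre females and 6.60 ± 0.674 CPM in Cre males, against 5.32 ± 1.27 CPM in GFP females and 4.48 ± 0.241 CPM in GFP males (SD, n = 3 each). In 10 of 12 fits that left out 1 library the call was lost, with adjusted p up to 0.135, and it was kept on leaving out library 1 of the Cre females or library 2 of the Cre males. With all libraries it was also lost with RLE scaling (adjusted p = 0.0515), limma-voom (0.0702) and the replicate block (0.0566), and DESeq2 kept it (0.00272). With the cortical covariate its change was 0.72 (adjusted p = 0.819 in edgeR). Its relatives Gadd45g and Gadd45a had changes of 0.66 and 0.53 in Cre males (adjusted p = 0.102 and 0.156 in edgeR).

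**Figure D5:**
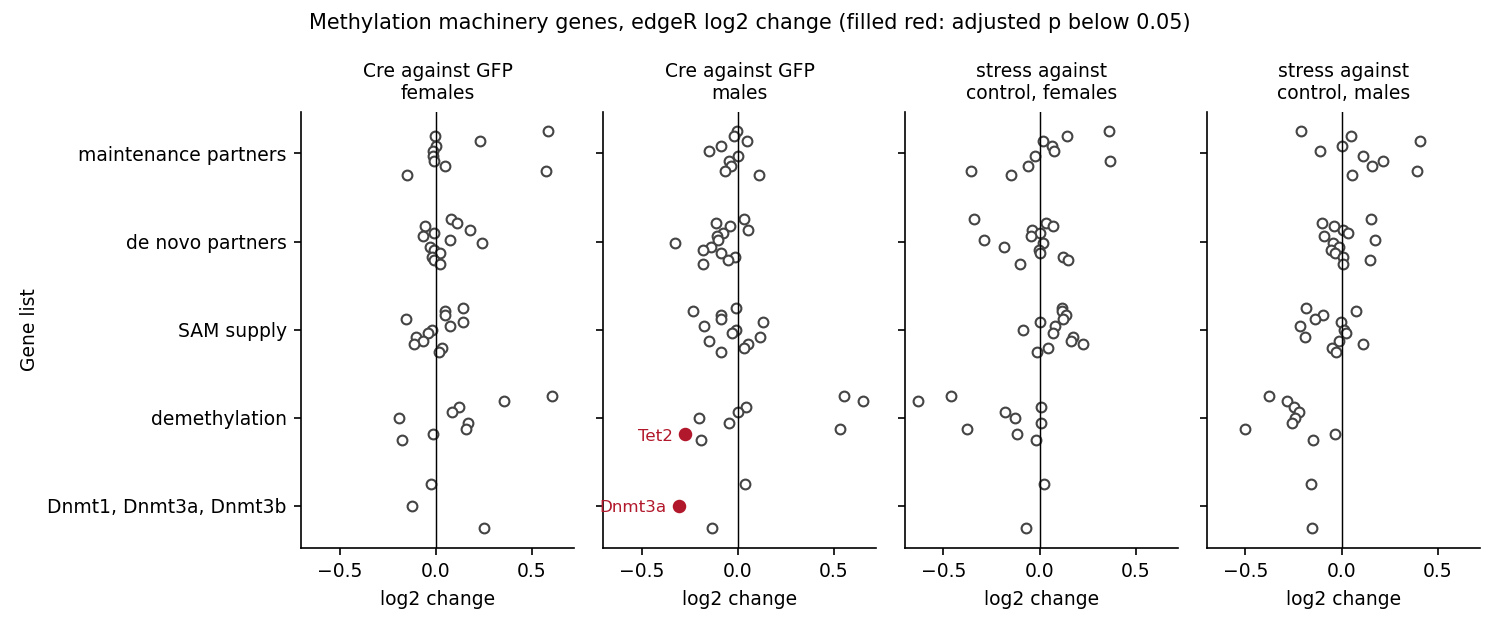
Log2 changes from edgeR (x axis) of the genes in the lists on methylation maintenance, de novo methylation, SAM supply and demethylation and of the methyltransferases (rows of points), in 4 comparisons (panels). Red marks the calls, Tet2 at -0.27 and Dnmt3a at -0.30 in Cre males, and no point is called in Cre females or under stress.

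Under stress, 0 genes of these lists were called by edgeR or DESeq2 in either sex, where 2.81% of all genes in males and 1.68% in females had an unadjusted p below 0.05 and DESeq2 called 0.0262% in males. Of the 9 demethylation genes, 9 had a negative change in stressed males (median -0.25) and 7 in stressed females (median -0.13), and 1 in females and 0 in males had an unadjusted p below 0.05. Averaged over the sexes, all 9 were negative and 3 had an unadjusted p below 0.05, against 3.21% of all genes, with 0 called by edgeR or DESeq2. In that average, Tet3 had a change of -0.20, Gadd45g of -0.46 and Gadd45b of -0.42, each with an adjusted p = 0.9997 in edgeR. The maintenance list had a median of 0.08 in stressed males and 0.04 in stressed females. The medians of the de novo list were -0.00 in both sexes, and those of the SAM list -0.03 in males and 0.12 in females, beside -0.00 in males and -0.01 in females over all genes.

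Genes whose level followed that of a methyltransferase were read across the 12 libraries of an experiment, as a description, since the libraries share group, depth and tissue make-up. For Dnmt3a in the floxed experiment the most alike was Ntrk3, the receptor of neurotrophin-3, with Pearson r = 0.93, and r = 0.53 in the wild-type experiment, followed by Fam173b (0.92 and 0.22) and the unnamed ENSMUSG00000091431 (0.92 and -0.02). In the wild-type experiment they were ENSMUSG00000087105 (0.88, and 0.14 in the floxed experiment), the kinase gene Map3k1 (0.87 and 0.43) and Klhl14 (0.85 and -0.29).

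For Dnmt1 in the wild-type experiment they were the kainate receptor gene Grik3 (0.92, and 0.66 in the floxed experiment), Exosc10 (0.92 and -0.13) and Gfra2 (0.91 and 0.39). In the floxed experiment they were Btbd16 (0.92, and 0.07 in the wild-type experiment), Lrrc56 (0.89 and -0.01) and ENSMUSG00000079517 (0.86). Dnmt3b could be read in the floxed experiment, where Colca2 (0.90), Gm15445 (0.83) and the DNA repair gene Rad18 (0.83) were most alike. Of the pairs with a value in both experiments, Grik3 with Dnmt1 and Ntrk3 with Dnmt3a had the highest r in the experiment that did not choose them.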

How the data were processed

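RNA sequencing of mouse nucleus accumbens was read from the raw count table that the authors deposited, with whole-number counts per Ensembl gene and no scaling. The submitters' processing notes list Bowtie2 2.1.0, TopHat2 2.0.9, HTSeq 0.6.0 and the builds NCBIM37 and mm9, without settings. Gene-level counts do not separate exons or isoforms, so reads of a transcript that lacks the deleted exons still count as Dnmt3a.

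Each experiment (12 libraries, 4 groups of 3) was fitted alone in R 4.3.3 with edgeR 4.0.16 (filterByExpr, TMM, robust quasi-likelihood, 1 mean per group), and p-values were adjusted by Benjamini-Hochberg over all 15249 wild-type or 17597 floxed genes. Calls needed an adjusted p under 0.05. Two-sided exact permutation tests shuffled labels within sex, on log2 CPM with a pseudocount of 0.5, and log2 CPM for likeness used a prior count of 2. DESeq2 1.42.0, limma 3.58.1 (voom), other scaling and filters, marker covariates, a replicate block and leaving out each library were alternatives. Same-numbered libraries deviated together in stressed and control females of the wild-type experiment (r of 0.59, 0.33 and 0.52 for the 3 pairs), which is the only pair of groups with every r over 0.1. In stressed and control males r was 0.34, 0.25 and 0.09. Control females and males had 0.43, 0.27 and 0.04, and stressed females and males had 0.46, 0.08 and -0.15. The main fits held no replicate block. Libraries of a group differed by more than counting noise in all 24 pairs. Labels do not state separate litters or batches.

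The methyltransferases and the gene lists were chosen with earlier results of these data known. Named were the 3 members, called list genes and up to 4 list genes of smallest p, the 3 most alike genes per member, and neighbouring genes.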

Additional observations from a re-analysis of the deposited data

How the results depend on the processing

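Calls on Dnmt3a with Cre depended on the settings. The male change with Cre was -0.14 with the cortical marker covariate (adjusted p = 1) and -0.28 with the choroid plexus covariate (0.119), and the average over the sexes -0.14 (1.00) and -0.20 (0.0616). Without 1 library they ranged from -0.34 to -0.27 and from -0.23 to -0.19. DESeq2 kept both calls (adjusted p = 1.64e-05 and 2.59e-05), as did limma (0.0185 and 0.0335). The exact permutation value was -0.21 with plain column totals and then passed (adjusted p = 0.03). The Dnmt3a share ranged from -3.63 to -2.99 percentage points without 1 library.

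Signs turned for changes that were not called. With the choroid covariate Dnmt1 was at -0.0096 in stressed females, -0.021 in Cre males and -0.024 over both sexes. With the cortical covariate Dnmt3b was at 0.35 in Cre males and -0.11 for the sex difference of the Cre change, which was 0.39 without it. The floxed sex difference of Dnmt3a was 0.0018 with RLE scaling and with DESeq2. Without 1 library, ranges across 0 were -0.10 to 0.11 (Dnmt1, stressed females), -0.11 to 0.035 (Dnmt1, Cre females), -0.035 to 0.037 (Dnmt1, Cre average), -0.059 to 0.12 (Dnmt3b, Cre average), -0.016 to 0.021 (Dnmt3a, floxed sex difference) and -1.74 to 0.58 percentage points (Dnmt3a share, stress). The cause was not tested.

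With the replicate block no call on a methyltransferase changed. Dnmt3a then had -0.30 in Cre males (adjusted p = 0.0252) and -0.21 over both sexes (0.0423). Sign flips over the 6 pairs gave -0.21 (exact p = 0.03125, adjusted p = 0.1875). All 6 pairs were negative, so this p was already the smallest that 64 arrangements allow. A lone result could therefore not pass after adjustment over 6 tests. For Dnmt3a under stress, the same sign flips gave -0.11, with 5 of 6 pairs negative (exact p = 0.09375, adjusted p = 0.28125). Deviations of same-numbered Cre and GFP libraries had r of 0.09, -0.14 and -0.45 in females and -0.11, 0.05 and 0.11 in males. Counts of calls over all genes moved more: Cre males had 872 (515 with the block, 1794 with DESeq2, 0 with the cortical covariate), the Cre average 249 (87, 650 and 0), stress over both sexes 2 (11 with DESeq2), Cre females 0 (34 with DESeq2), the sex difference of the Cre change 2 (609 with DESeq2) and sex 12 in floxed and 6 in wild-type mice (89 and 13 with DESeq2). Depth limits Dnmt3b, at 2 to 11 counts per wild-type library.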

Other observations

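Germline genes are kept silent in the body by DNA methylation at their promoters. Of 23 such genes, 13 passed the count filter in the floxed and 6 in the wild-type experiment. With Cre, edgeR and DESeq2 called 0 of 13 in males and 0 of 13 in females, and 1 gene in each sex had an unadjusted p below 0.05. Over all genes, edgeR called 4.96% in males and 0% in females, DESeq2 called 10.2% and 0.193%, and 24.8% and 5.96% had such a p. Dazl, an RNA-binding protein of germ cells, had a log2 change of -0.38 in Cre males (adjusted p = 0.122 in edgeR). The 23 genes summed to 39.7 to 44.9 CPM in Cre males and 38.0 to 42.8 CPM in Cre females, against 42.2 to 48.0 CPM in GFP males and 37.3 to 42.2 CPM in GFP females. Under stress, 0 of 6 were called by edgeR or DESeq2 in either sex, and 0 had an unadjusted p below 0.05, against 2.81% of all genes in males and 1.68% in females. Their sums were 27.6 to 35.3 CPM in stressed males and 25.1 to 27.7 CPM in stressed females, against 25.7 to 31.2 CPM in control males and 21.4 to 33.4 CPM in control females. Rpl10l was at 0 counts in all 24 libraries and Dppa3 in all 12 floxed libraries.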
